A study of Mus musculus with 15 samples.

Results

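The 10 apolipoprotein genes Apoa1, Apoa2, Apoa4, Apoa5, Apob, Apoc1, Apoc3, Apoe, Apoh and Apom were taken by symbol from a table of 24493 genes measured in sorted mouse liver cells, and all 10 were found. They were read in 5 groups of 3 libraries: reprogrammed cells, biliary cells and hepatocytes from mice fed DDC, and biliary cells and hepatocytes from untreated mice. DDC is a chow additive that injures hepatocytes and bile ducts. Every mouse, untreated ones included, had been given AAV-TBG-Cre when 4 weeks old, a viral vector in which the hepatocyte promoter TBG drives Cre recombinase. DDC chow began at 5 weeks of age and lasted 4 weeks. The series title calls the reprogrammed cells reprogrammed hepatocytes, and the markers used for sorting are not stated. The labels do not say that the libraries of a group came from separate animals, so p-values reflect the spread among these libraries alone.

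Apolipoproteins are the protein coats of lipoproteins, the particles that carry cholesterol and triglyceride in plasma. Apob is the scaffold of very low density lipoproteins, Apoa1 and Apoa2 are the main proteins of high density lipoproteins, and the smaller proteins move between particles and steer lipases, transfer proteins and receptors. The hepatocyte is the main source of most of them, the intestine makes several, and macrophages also make Apoe. Cholangiocytes, the biliary cells, are not known as a main source of plasma lipoproteins.

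The deposited unit, TPM, is a relative abundance per transcript length without read totals, and sequencing depth is therefore unknown. The groups differed in overall composition: the median gene stood 1.11 higher on the log2 scale in untreated biliary cells than in untreated hepatocytes in TPM as deposited, and 1.06 higher under DDC. Levels below are therefore TPM divided by 1 scale factor per library, given as means ± SD (n = 3). Differences are in log2(scaled TPM + 1), which understates the change of low genes. A call required both a limma adjusted p below 0.05 and a log2 difference of 1 or more in either direction. All 10 genes passed the filter of at least 1 TPM in at least 3 libraries, among 13905 genes tested. The summed TPM of 10 hepatocyte markers ran from 41069 to 47329 in untreated biliary cells and from 82975 to 90024 in untreated hepatocytes, so hepatocyte transcripts were abundant in libraries labelled biliary. The summed TPM of 10 biliary markers ran from 14476 to 17523 in untreated biliary cells and from 11.3 to 14.7 in untreated hepatocytes, where Krt7, Sctr and Cftr were at 0. Under DDC it was 4978 to 15241 in reprogrammed cells, 11801 to 20023 in biliary cells and 199.7 to 394 in hepatocytes. In bulk libraries, fewer cells of a type and less RNA per cell cannot be told apart.

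By GENCODE, Apoa1, Apoc3, Apoa4 and Apoa5 lie within 43340 bases of chromosome 9 (GRCm38), and Apoc1 and Apoe within 9708 bases of chromosome 7. Apoa1 (chr9:46228580-46230466), Apoa4 (chr9:46240696-46243459) and Apoa5 (chr9:46268633-46271919) are on the plus strand, and Apoc3 (chr9:46232933-46235636) lies between Apoa1 and Apoa4 on the minus strand. Apoc1 (chr7:19689481-19692660) and Apoe (chr7:19696109-19699188) are both on the minus strand. The other four stand alone: Apoa2 (chr1:171225054-171226379, plus), Apoh (chr11:108343354-108414396, plus), Apob (chr12:7977648-8016835, plus) and Apom (chr17:35128997-35132050, minus). Annotated antisense transcripts overlap Apoa4 and Apoa5, and Prkca overlaps Apoh on the opposite strand. Whether reads were assigned by strand is not stated, so reads of these 3 genes and of their opposite-strand neighbours may not have been told apart.

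Promoters of 8 of the 10 genes were in the RefSeq table used (GRCm38.p6). The 4 shown belong to Apoa4 and Apoa2, the genes called under DDC on the main scale, to Apoe, whose gap between untreated cell types was the smallest, and to Apoa1, the cluster neighbour of Apoa4 that did not follow it. Each stretch ends at the base before the GENCODE start. For Apoa4 and Apoa1 the RefSeq start lies further downstream (chr9:46240844 and chr9:46228630), so their stretches stop short of it. The stretches run 5′ to 3′ on the gene's own strand, with motif matches in capitals: Apoa4 at chr9:46240594-46240695 (plus), Apoa1 at chr9:46228380-46228579 (plus), Apoa2 at chr1:171224804-171225053 (plus) and Apoe at chr7:19699189-19699438 (minus).
Apoa4: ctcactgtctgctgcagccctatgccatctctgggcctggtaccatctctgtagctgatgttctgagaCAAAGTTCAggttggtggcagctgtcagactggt
Apoa1: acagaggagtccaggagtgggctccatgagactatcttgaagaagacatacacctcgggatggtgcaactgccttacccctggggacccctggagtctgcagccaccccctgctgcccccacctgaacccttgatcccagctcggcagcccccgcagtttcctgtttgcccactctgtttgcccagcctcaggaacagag
Apoa2: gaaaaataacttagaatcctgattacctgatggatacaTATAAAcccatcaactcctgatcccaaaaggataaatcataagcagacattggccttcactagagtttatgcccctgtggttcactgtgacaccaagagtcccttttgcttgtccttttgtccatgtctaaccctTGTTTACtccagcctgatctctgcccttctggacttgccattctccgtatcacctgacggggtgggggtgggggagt
Apoe: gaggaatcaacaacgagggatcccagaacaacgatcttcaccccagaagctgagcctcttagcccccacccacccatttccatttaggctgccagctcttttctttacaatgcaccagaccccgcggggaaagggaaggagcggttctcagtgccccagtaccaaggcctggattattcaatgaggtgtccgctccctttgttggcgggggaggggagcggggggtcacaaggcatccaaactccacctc
On both strands, 8 motifs were searched. They were CAAAGTNCA for HNF4, TGTTTAC for FOXA, TGACGTCA for the cyclic AMP response element, TTGCGCAA for C/EBP, TATAAA for the TATA box and GGGCGG for Sp1. The DR1 direct repeat of nuclear receptors (AGGTCA, any base, AGGTCA) and the HNF1 palindrome (GTTAAT, any base, ATTAAC) completed the set. None overlapped another in these stretches. The 102 bases of Apoa4 held 1 HNF4 match. Of 32817 RefSeq promoters of 250 bases, 0.427% held a match in the 102 bases farthest from the RefSeq start. The 250 bases of Apoa2 held 1 FOXA match, present in 3.16% of promoters of that length, and 1 TATA match, present in 12.4%. The 200 bases of Apoa1 and the 250 bases of Apoe held none of the 8. A match is a run of letters and not a measured binding site, and the lack of one says only that these letters are not in this window.

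Most of the summed apolipoprotein transcripts came from a few abundant genes. Together the 10 genes held between 3.90% and 6.11% of all TPM in reprogrammed cells, 1.76% to 3.08% in DDC biliary cells and 6.43% to 8.20% in DDC hepatocytes. They held 3.80% to 4.57% in untreated biliary cells and 7.51% to 7.94% in untreated hepatocytes. Apoe ranked 3rd of all genes by mean TPM in untreated biliary cells and 5th in untreated hepatocytes. In untreated hepatocytes Apoa2 ranked 4th, Apoc1 10th and Apoa1 11th. Apoc3 ranked 21st and Apoh 39th there. At the other end, Apoa4 averaged 78.6 ± 24.0 TPM as deposited in untreated hepatocytes (SD, n = 3) and ranked 1322nd, and in untreated biliary cells it ranked 3682nd and Apom 721st. Apob (910 ± 373 TPM) and Apoa5 (629 ± 143 TPM) did not differ beyond their spread there, nor did Apoc1 (10720 ± 297 TPM) and Apoa1 (10492 ± 1298 TPM). Apom, at 477 ± 27.7 TPM, overlapped with Apoa5.

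**Figure D1:**
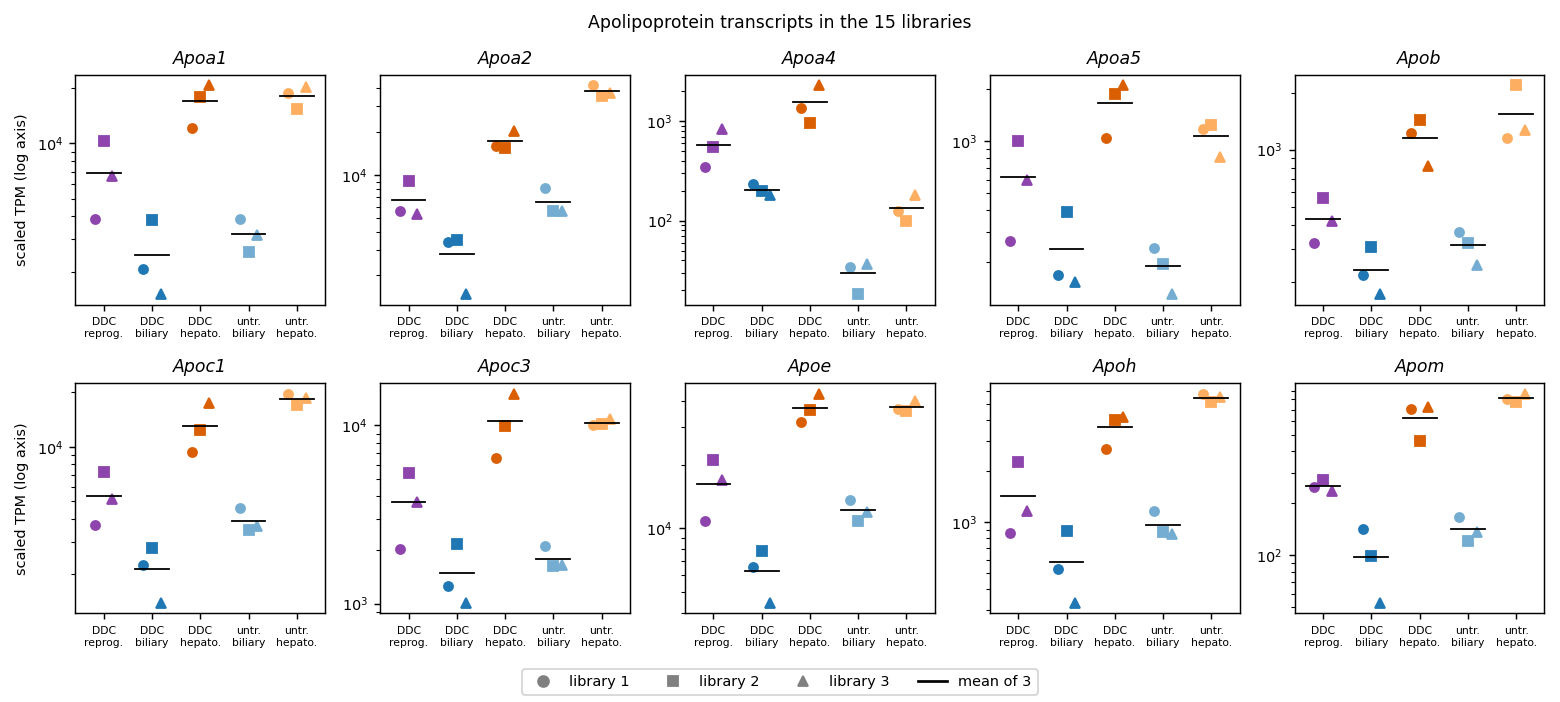
Scaled TPM (log axis) of the 10 apolipoprotein genes in the 15 libraries, by group, with symbols for the library number and a line at the mean of 3. All 10 means stand lower in both biliary groups than in the hepatocytes of the same treatment, and Apoa4 stands higher in each DDC group than in the untreated group of the same cell type.

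Of the 10 genes, the largest change under DDC was in Apoa4, which encodes a lipid-binding protein made by the intestine and, in the mouse, by the liver under lipid load and fasting. Apoa4 had 1361, 966 and 2307 scaled TPM in DDC hepatocytes, against 124, 99.6 and 180 in untreated hepatocytes. The groups did not overlap, and the lowest DDC library stood far above the highest untreated one. The log2 difference was 3.46 ± 0.38 (SE), an 11.0-fold rise with a limma adjusted p of 3.48e-05. In biliary cells the level was lower in both conditions but moved the same way. Apoa4 had 233, 198 and 180 scaled TPM in DDC biliary cells, against 34.4, 18.2 and 36.6 in untreated biliary cells, a log2 difference of 2.79 ± 0.38 (limma adjusted p = 0.00018). The difference between these DDC responses, biliary minus hepatocyte, was -0.67 ± 0.54 and did not pass (limma adjusted p = 0.507). Apoa4 was called in both cell types in each of the 6 fits that left out 1 library, with log2 differences of 3.12 to 3.75 in hepatocytes and 2.47 to 2.96 in biliary cells.

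Apoa2, the second protein of high density lipoproteins, was the one gene of the 10 that fell past both thresholds under DDC. It had 15847, 15511 and 20085 scaled TPM in DDC hepatocytes, against 42268, 35706 and 37148 in untreated hepatocytes. Every DDC library stood below every untreated one, with a log2 difference of -1.17 ± 0.37 (limma adjusted p = 0.0331). In biliary cells Apoa2 had 3428, 3515 and 1480 scaled TPM under DDC, against 8161, 5584 and 5615 in untreated biliary cells. Those groups did not overlap either, and the log2 difference was -1.28 ± 0.37 (limma adjusted p = 0.0229). The Apoa2 calls were less firm than those of Apoa4: in hepatocytes the call held in 1 of 6 fits that left out a library (without DDC hepatocyte library 3), with adjusted p up to 0.0994 and log2 differences from -1.29 to -1.10. In biliary cells it was lost without DDC biliary library 3 (-0.87) and without untreated biliary library 1 (-1.10). In TPM as deposited the difference was -0.90 in hepatocytes, short of the required 1, and -1.18 in biliary cells. It was -0.57 in hepatocytes and -0.74 in biliary cells under quantile normalization, called in neither. Without DDC biliary library 2 the count of genes called in biliary cells was 4.

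The remaining 8 genes did not pass in either cell type. So 2 of 10 genes were called for DDC against untreated hepatocytes, 1 in each direction, where 11% of all genes tested were called (6.59% higher and 4.42% lower). Likewise 2 of 10 were called for DDC against untreated biliary cells, where 10.4% of all genes were called (5.68% higher and 4.74% lower). Counts this close to the background are read as results on Apoa4 and Apoa2, not on the family. The median difference of the 10 was -0.26 in hepatocytes and -0.55 in biliary cells, beside 0.01 and -0.02 over all genes tested. Apoa1, the defining protein of high density lipoproteins and the cluster neighbour of Apoa4, averaged 16838 ± 4336 scaled TPM in DDC hepatocytes and 18002 ± 2542 in untreated hepatocytes (-0.12 ± 0.41). Apoc3, an inhibitor of triglyceride clearance that lies between them, averaged 10544 ± 4263 in DDC hepatocytes and 10377 ± 443 in untreated hepatocytes (-0.06 ± 0.39, from means of logs). Within that cluster Apoa4 was called and its neighbours Apoa1, Apoc3 and Apoa5 were not. The signs of the Apoa1 and Apoc3 differences turned positive in TPM as deposited (0.15 and 0.21).

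Neither Apoa5 nor Apoe passed. Apoa5, which promotes lipolysis of triglyceride-rich particles, had 1040, 1867 and 2116 scaled TPM in DDC hepatocytes and 1173, 1245 and 809 in untreated hepatocytes (0.60 ± 0.48, limma adjusted p = 0.393). Library 1 of the DDC hepatocytes lay within the untreated range. Apoe averaged 37231 ± 5696 scaled TPM in DDC hepatocytes and 37556 ± 2164 in untreated hepatocytes, a log2 difference of -0.02 ± 0.37 that turned positive in TPM as deposited (0.25). In biliary cells Apoe averaged 6286 ± 1706 under DDC and 12178 ± 1383 untreated (-0.99 ± 0.37, limma adjusted p = 0.0674). The difference between the Apoe responses was -0.96 ± 0.52 (adjusted p = 0.287), and it passed in 1 alternative, TPM as deposited, at -1.13 (adjusted p = 0.0278). Over all genes 8.4% were called for the difference between the responses (3.46% higher and 4.94% lower), and 0 of the 10 were. At an unadjusted p under 0.05 the count was also 0, the smallest being 0.0892 for Apoe.

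Between cell types the 10 genes moved together. All 10 were lower in DDC biliary cells than in DDC hepatocytes, beside 14.4% of all genes tested (20.2% were higher, 34.6% called in either direction). Their log2 differences ran from -2.89 (Apoa5) to -2.32 (Apob), with a median of -2.74 beside 0.14 over all genes. All 10 were also lower in untreated biliary cells than in untreated hepatocytes, beside 15.6% of all genes tested (21.6% were higher, 37.2% in either direction). There the range was -2.59 (Apoa2) to -1.63 (Apoe), with a median of -2.51 beside 0.12 over all genes. Apob, whose single molecule per particle sets particle number, had 217, 307 and 172 scaled TPM in DDC biliary cells, against 1227, 1435 and 816 in DDC hepatocytes. Apoc1, an inhibitor of plasma lipid transfer, had 2224, 2785 and 1381 in DDC biliary cells, against 9392, 12408 and 17351 in DDC hepatocytes. Every biliary library of these genes lay below every hepatocyte library of the same treatment. The direction held for all 10 in TPM as deposited, where 10 were called lower under DDC and 6 in untreated cells, beside 645 and 470 of all genes. Under quantile normalization the untreated differences of Apoe (0.33) and Apoc1 (0.03) turned positive.

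In untreated cells the gap was widest for Apoa2 and narrowest for Apoe. Among proteins of high density lipoproteins, Apoa2 had 8161, 5584 and 5615 scaled TPM in untreated biliary cells, against 42268, 35706 and 37148 in untreated hepatocytes (-2.59 ± 0.37, limma adjusted p = 4.4e-05). Apoa1 had 3854, 2567 and 3163 in untreated biliary cells, against 18576, 15222 and 20208 in untreated hepatocytes, and Apom had 168, 121 and 137 against 809, 779 and 864. None of these groups overlapped. Among proteins of triglyceride-rich particles, Apoc3 had 2100, 1630 and 1636 scaled TPM in untreated biliary cells, against 10104, 10139 and 10889 in untreated hepatocytes. Apoa5 had 242, 195 and 130 in untreated biliary cells, against 1173, 1245 and 809 in untreated hepatocytes. Library 3 was the lowest of each Apoa5 group. Apoe, the ligand through which remnant particles bind receptors, had 13635, 10885 and 12013 in untreated biliary cells, against 36816, 35860 and 39994 in untreated hepatocytes (-1.63 ± 0.37, limma adjusted p = 0.00168).

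Reprogrammed cells lay between the other DDC groups. All 10 genes were lower in reprogrammed cells than in DDC hepatocytes, beside 5.77% of all genes (13.7% were higher, 19.5% in either direction). The differences ran from -1.56 (Apoa5) to -1.24 (Apoe), with a median of -1.40 beside 0.06 over all genes. Apoa1 had 3869, 10225 and 6632 scaled TPM in reprogrammed cells, against 12123, 17740 and 20652 in DDC hepatocytes (-1.36 ± 0.41, limma adjusted p = 0.0157). Library 1 was the lowest of each group. Apoh, a plasma glycoprotein that binds anionic phospholipids, had 856, 2254 and 1161 in reprogrammed cells, against 2695, 4025 and 4194 in DDC hepatocytes (-1.45 ± 0.37, limma adjusted p = 0.00686). The groups did not overlap for either gene. These calls rested on the scaling: in TPM as deposited 0 of the 10 were called, with a median of -0.61 while the median gene stood at 0.71, and over all genes the split moved to 4240 higher and 9 lower. With only these 2 groups in the fit, 3 were called, beside 2416 of all genes.

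Library by library the gap was uneven. Apoe had 10897, 20966 and 16892 scaled TPM in reprogrammed cells, against 31996, 36401 and 43297 in DDC hepatocytes. Apoc3 had 2013, 5434 and 3708 in reprogrammed cells, against 6599, 9968 and 15066 in DDC hepatocytes. Apoa5 had 265, 999 and 600 in reprogrammed cells, against 1040, 1867 and 2116 in DDC hepatocytes, so that reprogrammed library 2 came near DDC hepatocyte library 1. For these 3 genes reprogrammed library 2 was the highest and library 1 the lowest of the reprogrammed libraries. Apoa1, Apob, Apoc1 and Apoh had that order too. Apoa4 (343, 548 and 841 scaled TPM), Apoa2 (5628, 9080 and 5350) and Apom (249, 272 and 236) did not. The summed TPM of the hepatocyte markers had the order of Apoe, Apoc3 and Apoa5, at 35609, 85413 and 55344 in reprogrammed libraries 1, 2 and 3. That of the biliary markers had the opposite order, at 15241, 4978 and 10027. Alb (21043, 59370 and 37051 TPM) made up most of the first sum and Spp1 (13348, 3840 and 8289 TPM) most of the second. Ttr, Cyp2e1 and Cyp3a11 did not keep the hepatocyte order, nor Krt19, Krt7 and Aqp1 the biliary order, while the other markers kept theirs. The part of this marker difference in the apolipoprotein levels was not tested.

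Against DDC biliary cells, 8 of the 10 genes were higher in reprogrammed cells, beside 2.78% of all genes (0.734% were lower, 3.51% called in either direction). The differences of all 10 ran from 0.90 (Apob) to 1.49 (Apoa1), with a median of 1.33 beside -0.06 over all genes. Apom, a high density lipoprotein component that carries sphingosine 1-phosphate, had 249, 272 and 236 scaled TPM in reprogrammed cells, against 142, 98.6 and 53.0 in DDC biliary cells (1.47 ± 0.28, limma adjusted p = 0.00912). Apoa4 had 343, 548 and 841 in reprogrammed cells, against 233, 198 and 180 in DDC biliary cells (1.41 ± 0.38, limma adjusted p = 0.0281). Neither gene overlapped between the groups. Apob (0.90 ± 0.31, adjusted p = 0.07) and Apoa5 (1.32 ± 0.48, adjusted p = 0.0806) were not called. With the library number as a block, Apoa5 was called too (adjusted p = 0.048 over all samples, 0.0116 within treatment). The count of 8 depended on single libraries: 1 gene, Apom, was called without reprogrammed library 2, without reprogrammed library 3 or without DDC biliary library 3. It was 4 without DDC biliary library 1 and 10 without reprogrammed library 1. With only these 2 groups in the fit, 0 of the 10 were called, but only 3 of all 13905 genes were. TPM as deposited gave 6 higher, beside 120 of all genes.

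Each library was also set against the hepatocyte library of the same number and treatment, in TPM as deposited, and the spread among the 10 genes differed between libraries. In DDC biliary library 2 the 10 genes ran from 41.7% (Apoa4) to 46.1% (Apoa2) of DDC hepatocyte library 2. The median of 15 other hepatocyte genes used as a reference list was 44.8% there. That list held plasma protein genes (Alb, Ttr, Serpina1a, Serpina1b, Serpina1c, Ahsg, Fgb, Fga, Trf, Hpx, Vtn, Rbp4 and Gc) and the enzymes Cps1 and Fah. In DDC biliary library 3 the median of the 10 was 19.2%, beside 23.9% for the reference genes, and Apob stood apart at 53.4%. In DDC biliary library 1 the median was 37.6%. Reprogrammed library 2 stood highest, with a median of 87.7% and a range from 59.3% (Apob) to 90.6% (Apom), beside 87.3% for the reference genes. Reprogrammed libraries 1 and 3 had medians of 56.9% and 58.9%, and in library 3 Apob reached 97.8%. Apob stood farthest from the median in reprogrammed libraries 2 and 3 and in DDC biliary library 3. It had 529 TPM as deposited in DDC hepatocyte library 3, against 952 and 991 in libraries 1 and 2. The library numbers paired the libraries by a check on all genes except between DDC biliary cells and DDC hepatocytes, where that check fell short.

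**Figure D2:**
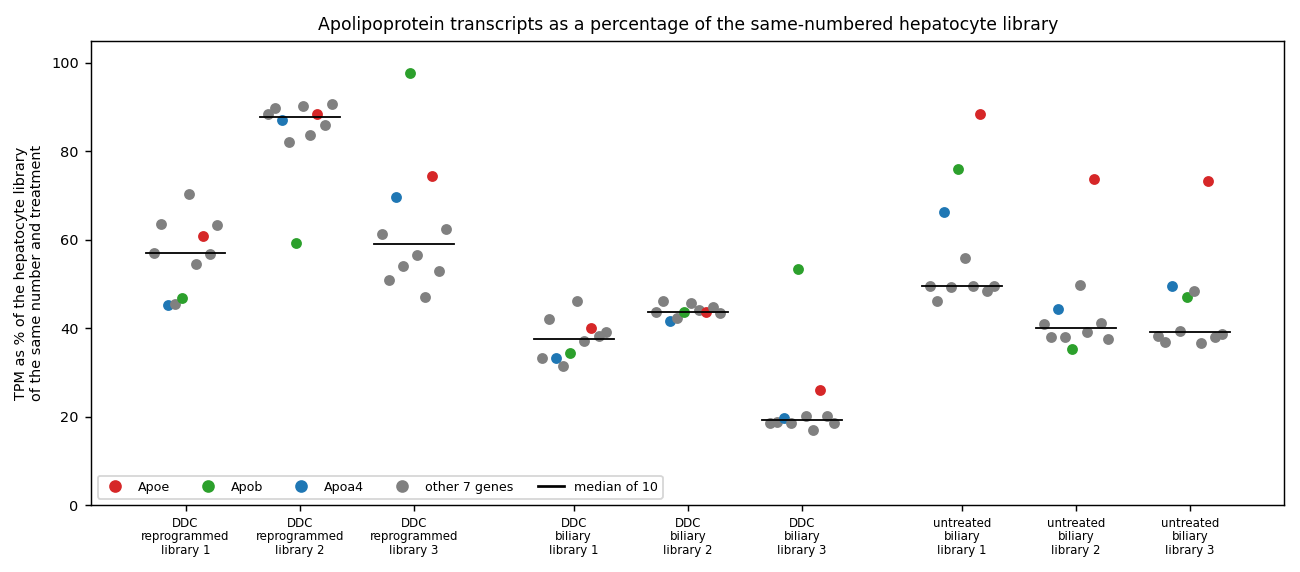
TPM of each of the 10 genes as a percentage of its TPM in the hepatocyte library of the same number and treatment, for the 6 DDC and 3 untreated libraries of reprogrammed and biliary cells, with a line at the median of 10. Apoe stands above the other genes in all 3 untreated biliary libraries (88.4%, 73.7% and 73.4%), and in DDC biliary library 2 the 10 genes fall between 41.7% and 46.1%.

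In untreated biliary cells Apoe stood above the other genes. The median of the 10 genes was 49.6%, 40.0% and 39.0% of the same-numbered untreated hepatocyte library, while Apoe stood at 88.4%, 73.7% and 73.4%. It was the highest of the 10 in all 3 libraries. Its share of the summed TPM of the 10 genes was 39.7%, 42.4% and 43.7% in untreated biliary cells, against 27.0%, 29.0% and 29.5% in untreated hepatocytes. Under DDC the groups overlapped: the Apoe share was 39.1%, 35.6% and 41.5% in DDC biliary cells and 38.6%, 36.1% and 34.2% in DDC hepatocytes. In hepatocytes alone, every DDC library had a larger Apoe share than every untreated one. The exact two-sided permutation test of 3 against 3 libraries cannot give less than 0.1, and it gave 0.1 for the untreated shares and 0.3 for the DDC shares. Shares of a sum depend on each other. The Apoa2 share was 23.8%, 21.7% and 20.4% in untreated biliary cells, against 31.0%, 28.9% and 27.4% in untreated hepatocytes.

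Markers of other liver cells are given beside the Apoe result, first those of macrophages, which make Apoe. The summed TPM of 11 Kupffer cell and macrophage markers ran from 101.7 to 163 in untreated biliary cells and from 9.77 to 21.5 in untreated hepatocytes, with Csf1r at 45.4 to 73.3 in untreated biliary cells. In each group every one of the 11 markers was above 0 in at least 1 library. Under DDC the sums were 110.1 to 275 for biliary cells and 22.2 to 27.2 for hepatocytes. Reprogrammed cells had sums of 68.1 to 112. The sum of 8 stellate cell and fibroblast markers was 176.1 to 205 in untreated biliary cells, against 0.756 to 3.26 in untreated hepatocytes. Under DDC it was 292 to 564 in reprogrammed cells, 592 to 1037 in biliary cells and 9.75 to 17.5 in hepatocytes. Outside hepatocytes Rgs5 made up most of this sum, at 142 to 160 TPM in untreated biliary, 273 to 540 in reprogrammed and 573 to 915 in DDC biliary cells. No other marker of that list exceeded 71.5 TPM (Dcn in DDC biliary library 3). The sum of 7 endothelial markers was 12.8 to 21.9 in untreated biliary cells, against 5.18 to 6.26 in untreated hepatocytes. Under DDC it was 13.8 to 22.8 in reprogrammed cells, 18.7 to 53.3 in biliary cells and 8.01 to 8.62 in hepatocytes. No stellate or endothelial marker was at 0 in all libraries of a group. The part of RNA from these cells in the Apoe result was not tested.

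**Figure D3:**
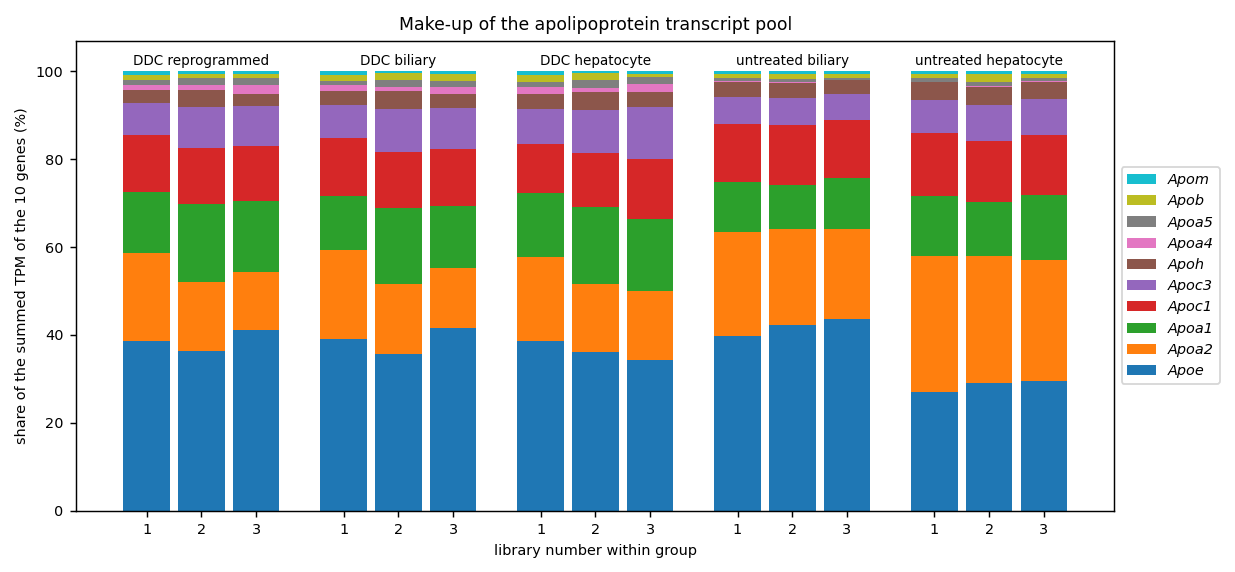
Share of each gene in the summed TPM of the 10 apolipoprotein genes (%), as stacked bars for each library. Apoe takes 39.7% to 43.7% of the sum in untreated biliary cells and 27.0% to 29.5% in untreated hepatocytes, and Apoa2 takes 15.4% to 19.1% in DDC hepatocytes and 27.4% to 31.0% in untreated hepatocytes.

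Each gene was also expressed relative to the geometric mean TPM of the 15 reference genes in the same library, a ratio that no scaling between libraries can move. For the limma fit these ratios were multiplied by the mean reference level, and 1 was added before the log2. That fit was chosen after seeing the data. On this scale 0 of the 10 genes were called for reprogrammed cells against DDC hepatocytes (54.5% of all genes called), for reprogrammed against DDC biliary cells (70.1%), for DDC biliary cells against DDC hepatocytes (86.9%) or for untreated biliary cells against untreated hepatocytes (80.4%). The median difference of the 10 was -0.12, 0.01, -0.14 and -0.12 in these comparisons, beside 1.10, -1.27, 2.36 and 2.02 over all genes. At an unadjusted p under 0.05 the counts were 0, 0, 0 and 1, the 1 being Apoe. Relative to other hepatocyte transcripts, Apoe was 0.76 ± 0.16 higher in untreated biliary cells than in untreated hepatocytes on the log2 scale, 1.69-fold (limma adjusted p = 0.000476), short of the required 1. The corresponding difference under DDC was 0.02 ± 0.16, and the difference between these, as the DDC response of biliary minus hepatocyte, was -0.74 ± 0.23 (adjusted p = 0.116), where 3.5% of all genes and 0 of the 10 were called.

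For DDC against untreated hepatocytes, 2 of the 10 genes were called on this relative scale, beside 6.35% of all genes. Apoa4 stood 3.91 ± 0.38 higher (limma adjusted p = 5.64e-06) and Apoa5 1.06 ± 0.25 higher (adjusted p = 0.0162). The log2 ratio of Apoa5 to the reference genes was -2.12, -1.87 and -1.89 in DDC hepatocytes, against -2.93, -2.72 and -3.42 in untreated hepatocytes. The groups did not overlap. The count of 2 fell to 1 without DDC hepatocyte library 2 or 3, without untreated hepatocyte library 1 or 3, and with Alb alone as the reference. With Alb alone 333 of all genes were called. For DDC against untreated biliary cells Apoa4 was called (3.50 ± 0.38), beside 21.5% of all genes, and Apoa5 was at 0.92 ± 0.25 (adjusted p = 0.0152). The count of 1 was 2 without DDC biliary library 1 or untreated biliary library 2. Apoa2 was at -0.70 ± 0.24 in hepatocytes (adjusted p = 0.104) and -0.59 ± 0.24 in biliary cells (adjusted p = 0.0797) and was called in neither. Its relative values were 1.81, 1.19 and 1.36 in DDC hepatocytes, against 2.24, 2.12 and 2.10 in untreated hepatocytes.

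**Figure D4:**
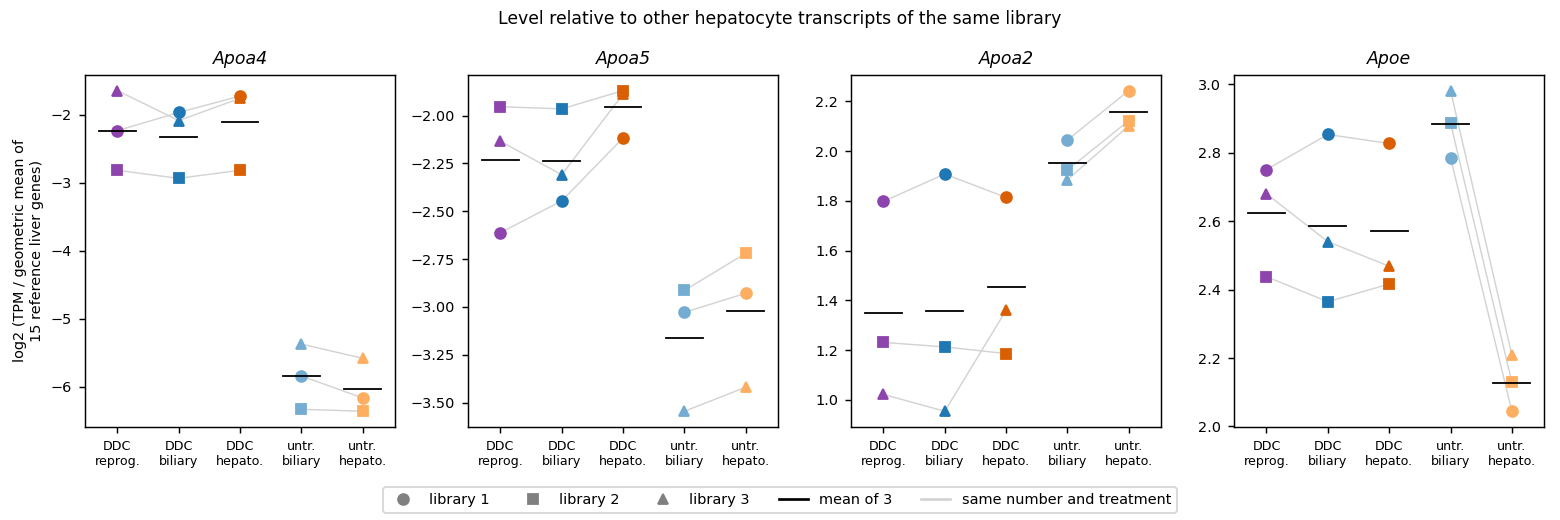
Log2 ratio of Apoa4, Apoa5, Apoa2 and Apoe to the geometric mean TPM of 15 reference hepatocyte genes in each library, with lines at group means and grey lines joining libraries of the same number and treatment. Every DDC library stands above every untreated library for Apoa4 and Apoa5, the group means of Apoa2 are lower in the 3 DDC groups than in both untreated groups, and Apoe stands at 2.79 to 2.98 in untreated biliary cells and at 2.04 to 2.21 in untreated hepatocytes.

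Counted by groups that do not overlap on the relative scale, 1 of the 10 genes separated reprogrammed cells from DDC hepatocytes (58.8% of all genes did), 1 separated reprogrammed from DDC biliary cells (52.8%) and 2 separated DDC biliary cells from DDC hepatocytes (87.5%). In untreated cells 6 separated biliary cells from hepatocytes (90.5%). For DDC against untreated cells the counts were 7 in hepatocytes (41.9%) and 3 in biliary cells (42.7%), and 6 separated reprogrammed cells from untreated hepatocytes (84.1%). Counted by shares of the summed TPM, which exist for these 10 genes only, the numbers that did not overlap were 0, 1, 0, 7, 5, 7 and 5 in the same order of comparisons. Apom is shown for the DDC libraries because its relative values differed more between numbers than between cell types. It was at -2.70, -3.83 and -3.48 in reprogrammed libraries 1, 2 and 3, at -2.69, -3.94 and -3.85 in DDC biliary libraries and at -2.68, -3.89 and -3.44 in DDC hepatocyte libraries. In all 3 groups library 1 was the highest and library 2 the lowest. Such an order by number was not particular to Apom. Apoa2 was highest in library 1 of reprogrammed cells (1.80), DDC biliary cells (1.91) and DDC hepatocytes (1.81). Apoa4 was lowest in library 2 of the same groups (-2.82, -2.94 and -2.82).

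Set against untreated hepatocytes, reprogrammed cells had 8 of the 10 genes lower and 1 higher, beside 12.5% of all genes lower and 20.6% higher (33.1% called in all). Apoa4 had 343, 548 and 841 scaled TPM in reprogrammed cells, against 124, 99.6 and 180 in untreated hepatocytes, a log2 difference of 2.04 ± 0.38 (limma adjusted p = 0.000449). Apoa2 had the largest fall, 5628, 9080 and 5350 in reprogrammed cells, against 42268, 35706 and 37148 in untreated hepatocytes (-2.56 ± 0.37, limma adjusted p = 6.03e-05). Apoa5 was not called (-0.96 ± 0.48, adjusted p = 0.0951), and its sign turned in TPM as deposited (0.10). Relative to the reference genes, where 71.3% of all genes were called, Apoa4 alone of the 10 was called (3.78 ± 0.38), and the count was 2 without reprogrammed library 1. On that scale Apoa2 was at -0.81 ± 0.24 (adjusted p = 0.00706), Apoa5 at 0.79 ± 0.25 (adjusted p = 0.0096) and Apoe at 0.50 ± 0.16 (adjusted p = 0.0123), each under 1 in size. In TPM as deposited 2 of the 10 were called, 1 in each direction, beside 6802 of all genes. Under quantile normalization Apoa4 alone was called, beside 3729 of all genes, while the differences of Apoa1 (0.29), Apoe (0.23) and Apoc3 (0.01) turned positive.

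Of 14 further apolipoprotein genes, 8 could be tested. Between untreated biliary cells and untreated hepatocytes 7 were lower and 1, Clu, was higher, beside 15.6% and 21.6% of all genes tested. Clu, also named apolipoprotein J, is a secreted chaperone, and averaged 10181 ± 101 scaled TPM in untreated biliary cells, against 2057 ± 169 in untreated hepatocytes (2.31, limma adjusted p = 0.000123). It was the one apolipoprotein gene called in the other direction in reprogrammed cells too, at 10296 ± 3947 against 4297 ± 2004 in DDC hepatocytes (1.29, adjusted p = 0.013), and 7 of the 8 were lower there, beside 5.77% of all genes. Under DDC, Apoc2, the activator of lipoprotein lipase, averaged 2232 ± 811 in DDC hepatocytes and 794 ± 101 in untreated hepatocytes (1.44, adjusted p = 0.00308), while Apol9b (-2.36), Apol9a (-2.05) and Apol7a (-1.17) were lower. Apol9a and Apol9b are close copies, so reads may have been split between them. In biliary cells under DDC, Apoc2 was the 1 called higher and 4 were lower, beside 5.68% and 4.74% of all genes. No called gene of this list changed sign in TPM as deposited or under quantile normalization. For reprogrammed cells against DDC hepatocytes, however, the 7 called lower became 0 and 3. In that comparison only 9 of all genes were called lower in TPM as deposited, and 4240 higher. Under quantile normalization 1964 of all genes were called in either direction.

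Of 14 genes that build and secrete lipoproteins, limma called 0 for DDC in either cell type, on any of the 3 scales. On the main scale 11% of all genes tested were called for DDC in hepatocytes and 10.4% in biliary cells. Sort1 was nearest to a call, at -0.99 in DDC hepatocytes (adjusted p = 0.00104). In untreated biliary cells 11 of the 14 were lower than in untreated hepatocytes and 1, Sort1, higher, while in TPM as deposited 4 were lower and the signs of Mia2 and Mia3 turned. Over all 13905 genes tested 15.6% were lower and 21.6% higher, and 470 genes were lower in TPM as deposited. Mttp, which loads lipid onto Apob, averaged 39.9 ± 5.20 scaled TPM in untreated biliary cells, against 225 ± 14.0 in untreated hepatocytes (-2.47, limma adjusted p = 2.55e-06). Sort1, a sorting receptor that binds Apob, averaged 58.1 ± 4.08 in untreated biliary cells, against 10.7 ± 0.360 in untreated hepatocytes (2.34, adjusted p = 1.19e-07). In reprogrammed cells 8 were lower than in DDC hepatocytes, where 5.77% of all genes were. In TPM as deposited 0 were lower, where only 9 of all genes were. On the main scale Sort1 was higher in reprogrammed cells, at 24.4 ± 6.23 against 4.92 ± 1.03 (2.08). Of the 9 genes of high density lipoprotein maturation and cholesterol efflux, 7 were lower in both biliary groups than in hepatocytes (3 in TPM as deposited), and under DDC Pon1 (-1.47) and Lipc (-1.29) were lower and Abcg1 higher in hepatocytes. Over all genes 14.4% were lower in biliary cells than in hepatocytes under DDC, and 15.6% in untreated cells. In TPM as deposited 645 and 470 of all genes were lower in these comparisons. Abcg1 was low throughout, with a mean of 2.42 ± 1.44 scaled TPM in DDC hepatocytes and 0.105 ± 0.0708 in untreated hepatocytes.

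Among genes of triglyceride clearance, 1 of 8 tested was called higher and 1 lower in DDC hepatocytes, beside 6.59% and 4.42% of all genes tested. Lpl, the lipase that Apoc2 activates and Apoc3 opposes, had 164, 376 and 369 scaled TPM in DDC hepatocytes, against 17.0, 21.4 and 23.3 in untreated hepatocytes (3.73, limma adjusted p = 9.12e-05). In biliary cells it had 30.3, 81.4 and 40.5 under DDC and 16.2, 20.6 and 19.2 untreated (1.28, adjusted p = 0.0619). The difference between the Lpl responses, biliary minus hepatocyte, passed at -2.46 (limma adjusted p = 0.0284). It passed in TPM as deposited too (-2.57) and was not called under quantile normalization (-1.73, adjusted p = 0.121). The Lpl response in biliary cells was itself called on both of those scales, at 1.39 in TPM as deposited (adjusted p = 0.0222) and 1.57 under quantile normalization. Angptl4, an inhibitor of Lpl, averaged 60.7 ± 34.4 in DDC hepatocytes and 200.3 ± 53.0 in untreated hepatocytes (-1.81, limma adjusted p = 0.00793), a call lost under quantile normalization (-1.39, adjusted p = 0.0511). Of 9 receptor genes tested, Vldlr was the 1 called for DDC in hepatocytes, at 6.65 ± 0.807 against 1.39 ± 1.05 in untreated hepatocytes (1.80, limma adjusted p = 0.00136). Over all genes 11% were called for DDC in hepatocytes and 10.4% in biliary cells. In biliary cells Vldlr averaged 7.78 ± 1.10 under DDC and 9.28 ± 2.52 untreated (-0.20, adjusted p = 0.684), and the difference between its responses, biliary minus hepatocyte, was called (-2.001, adjusted p = 0.0119). Lrp8, which binds Apoe, was the 1 receptor gene called for DDC in biliary cells, at 1.59 ± 1.10 against 0.0769 ± 0.0294 untreated (1.17, adjusted p = 0.00587), and it was not called under quantile normalization (0.81).

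Of 21 transcription factors tested that are known to act on apolipoprotein genes, 1 was called for DDC in hepatocytes, beside 11% of all genes tested. It was Nr0b2, a repressor induced by bile acids, at -1.68 (limma adjusted p = 0.0104). Hnf4a, whose motif stands in the Apoa4 stretch printed above, averaged 301 ± 45.4 scaled TPM in DDC hepatocytes and 357 ± 18.4 in untreated hepatocytes (-0.26, adjusted p = 0.408). Creb3l3, counted with the lipolysis genes and known in the mouse to drive Apoa4, averaged 207 ± 67.5 in DDC hepatocytes and 283 ± 35.9 in untreated hepatocytes (-0.50, adjusted p = 0.292). In untreated biliary cells 10 of the 21 were lower than in untreated hepatocytes and 4 higher, beside 15.6% and 21.6% of all genes. In TPM as deposited 0 were lower and 8 higher, beside 470 and 7350 of 13905 genes, and the sign of Foxo1 turned. Hnf4a averaged 84.2 ± 13.8 in untreated biliary cells (-2.08, adjusted p = 1.98e-06).

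Across the 15 libraries, which share the strong contrast between hepatocytes and biliary cells, the pattern of Apoa4 was the least like those of the other genes. For each of the other genes the lowest Pearson r with another of the 10 was with Apoa4, from 0.16 (Apoa2) to 0.65 (Apoa5). The highest were 0.99 between Apoa1 and Apoc3 and 0.99 between Apoc1 and Apoh. For each of the 10, likeness was also ranked among the tested genes outside the 10. The 3 most like Apoa4 were Anxa7 (r = 0.98), Slc39a1 (0.98) and Psmd8 (0.97). Those most like Apoa1 were Rbp4, Serpinf2 and Slc6a13, those most like Apoa2 were Phyh, Shmt1 and Otc, and those most like Apoh were Marc1, Plg and F10. Apoc4 was among the 3 most like Apoc3, with Uqcr10 and 2410015M20Rik. Abca1, Prkar2a and Pcsk6 were most like Apob, Mpc2, Tmprss6 and Msra most like Apoe, and Gfra1, Kng1 and Slc17a1 most like Apoa5. Apoc1 was nearest to Marc1, Ddt and Pxmp2, and Apom to Cideb, Hadh and Gltpd2. These are correlations over 15 libraries in 5 groups, given as a description.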

How the data were processed

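RNA of sorted mouse liver cells was sequenced in 15 libraries, 3 in each of 5 groups assigned by title. Per the submitters' processing notes, the deposited gene TPM were made with Salmon for mm10, whose version was not given in the sources used here. TPM hold no read totals, so counting error is unknown.

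Genes with at least 1 TPM in at least 3 libraries were tested (13905 of 24493). TPM were divided by median-ratio scale factors from 11924 kept genes. Limma 3.58.1 (R 4.3.3) was fitted once to log2(scaled TPM + 1) of all 5 groups without a block, with empirical Bayes trend and Benjamini-Hochberg adjustment over all genes tested, and calls required both an adjusted p below 0.05 and a log2 difference of 1 or more in size. The second fit used TPM divided by the geometric mean of 15 reference hepatocyte genes and multiplied by its mean over libraries. As in the first fit, 1 was added before the log2. This second fit was added after seeing the data. Tables and figures were made with Python 3.11.15, pandas 2.3.3, numpy 2.4.6 and matplotlib 3.10.9. The fitting step was tested on simulated data. Positions came from GENCODE M21 (GRCm38, the assembly of mm10) and promoters from RefSeq (GRCm38.p6).

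Libraries of the same number deviated together over all genes in 3 of 4 pairs of groups within a treatment: r was 0.136 to 0.449 for reprogrammed cells with DDC hepatocytes, 0.208 to 0.456 for reprogrammed with DDC biliary cells and 0.150 to 0.236 for untreated biliary cells with untreated hepatocytes. For DDC biliary cells with DDC hepatocytes r was 0.0436 to 0.319, so the required 0.1 was not reached by every pair. There too r was highest with the own number in 3 of 3 cases. The alternatives tried were quantile normalization, unscaled TPM, a pseudocount of 0.1 or 5, tests without a filter or with one of 5 TPM, fits of the compared groups alone, the replicate block, Alb alone as the reference, and leaving out each library.

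The genes named were the 10 apolipoproteins and up to 4 called genes per list and comparison with the largest difference. Named too were the 3 genes most correlated with each apolipoprotein, among tested genes outside the 10. Outside this rule, Clu, Sort1 (in 2 comparisons), Apoc2 in biliary cells, Mia2, Mia3, Foxo1, Hnf4a and Creb3l3 were named after their values were seen. The members and lists were chosen with earlier results of these data known.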

Additional observations from a re-analysis of the deposited data

How the results depend on the processing

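Counts are of the 10 apolipoprotein genes called, and the causes of their moves were not tested unless the setting itself leaves out samples or genes. For reprogrammed cells against DDC hepatocytes the 10 called became 0 in TPM as deposited, 0 under quantile normalization and 3 with only those groups in the fit (4249, 1964 and 2416 of all genes). Against DDC biliary cells the 8 called became 1 under quantile normalization, 4 with a pseudocount of 0.1, 2 without a filter and 0 with only those groups in the fit (568, 517, 425 and 3 of all genes). For untreated biliary cells against untreated hepatocytes the 10 became 6 in TPM as deposited and 4 under quantile normalization (7820 and 4271 of all genes). For DDC against untreated hepatocytes the 2 became 1 in TPM as deposited, under quantile normalization, without a filter and with only those groups in the fit, and for DDC against untreated biliary cells the 2 became 1 in the last 3 of these. Of all genes, 1396, 1048, 1491 and 1187 were called in hepatocytes and 1621, 1416 and 1522 in biliary cells in these settings. For reprogrammed cells against untreated hepatocytes the 9 became 2 in TPM as deposited and 1 under quantile normalization (6802 and 3729 of all genes). For the difference between the DDC responses the 0 became 1 in TPM as deposited (1095 of all genes). With Alb alone as the reference, the relative calls became 1 for DDC against untreated hepatocytes (333 of all genes). For DDC against untreated biliary cells they became 2 (1813 of all genes). With that reference the genes without overlap became 0 for reprogrammed cells against DDC hepatocytes and 1 for DDC biliary cells against DDC hepatocytes. They became 3 for DDC against untreated hepatocytes and 2 for reprogrammed cells against untreated hepatocytes. Leaving out each library in turn gave 7 to 10 calls for reprogrammed cells against DDC hepatocytes, 1 to 10 against DDC biliary cells, 10 in both comparisons of biliary cells with hepatocytes, 1 to 2 for DDC against untreated hepatocytes, 1 to 4 for DDC against untreated biliary cells, 8 to 10 for reprogrammed cells against untreated hepatocytes and 0 for the difference between responses. Relative calls then ran from 1 to 2 for each DDC group against untreated cells and were 0 elsewhere. Counts over all genes are not given for these fits. Genes without overlap on the relative scale ran from 1 to 4, 1 to 3, 2 to 3, 6 to 8, 7 to 7, 4 to 7 and 6 to 9, and by share of the summed TPM from 0 to 2, 1 to 2, 0 to 3, 7 to 8, 5 to 8, 7 to 8 and 5 to 9, in the order of comparisons used in the report. Signs turned for genes that were not called, unless said otherwise. In DDC against untreated hepatocytes TPM as deposited gave 0.15 for Apoa1, 0.21 for Apoc3 and 0.25 for Apoe, and quantile normalization gave 0.68 for Apoa1, 0.44 for Apoc3, 0.33 for Apoe and 0.020 for Apoh, while Apoc1 came to 0, with no sign. Leaving out a library gave -0.29 to 0.10 for Apoa1, -0.36 to 0.24 for Apoc3 and -0.14 to 0.078 for Apoe there, and -0.19 to 0.48 for Apoa5 in DDC against untreated biliary cells. In reprogrammed cells against untreated hepatocytes Apoa5 was 0.10 in TPM as deposited, and quantile normalization gave 0.29 for Apoa1, 0.011 for Apoc3 and 0.23 for Apoe, all called lower on the main scale. Quantile normalization also gave 0.0040 for Apoc3 in DDC against untreated biliary cells, and 0.027 for Apoc1 and 0.33 for Apoe in untreated biliary cells against untreated hepatocytes, where both were called lower on the main scale. With the library number as a replicate block, Apoa5 joined the 8 genes called for reprogrammed against DDC biliary cells (adjusted p = 0.048 over all samples and 0.0116 within treatment), and no other call changed. Each library was most like its own number in 3 of 3 cases in each pair of groups within a treatment. Depth is unknown, and 3 libraries a group limit the precision.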
